A study of Mus musculus with 9 samples.

Results

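The genes described here are 10 members of the NF-kB pathway: the subunits Rela, Relb, Nfkb1 and Nfkb2, the IkB kinase complex genes Chuk, Ikbkb and Ikbkg, and the inhibitors Nfkbia, Nfkbib and Tnfaip3. They were chosen by name, and 23 RefSeq transcripts of the deposited table map to them, out of 33299 transcripts and 23798 genes in all. RNA came from mouse brain, and the labels name oligodendrocytes, the myelin-making cells of the central nervous system, as the cell type. The groups were mice of the genotype labelled TG given NM-101, TG mice given placebo, and wild-type (WT) mice given placebo, with 3 libraries each. The labels state neither the transgene and its promoter nor the age of the mice or the nature, dose and timing of NM-101, and they do not say whether libraries of a group came from separate mice.

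NF-kB is a family of transcription factors that act as pairs of subunits. In resting cells IkB proteins hold these pairs in the cytoplasm. Signals from receptors such as the Toll-like, tumour necrosis factor and interleukin receptors activate the IkB kinase complex, which marks IkB proteins for destruction and frees NF-kB to enter the nucleus. Because release is controlled at the protein level, transcript levels of these genes do not measure NF-kB activity directly. Several inhibitors, among them Nfkbia and Tnfaip3, are themselves induced by NF-kB and close a feedback loop. In brain the pathway is best known from the inflammatory responses of microglia and astrocytes.

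The TG values are treated as log2(FPKM + 1), that is, fragments per kilobase of transcript scaled to a common library size, a unit read from the values themselves. The WT values are counts, rebuilt here as log2(RPKM + 1) from the library total and the transcript length for side-by-side description only. Depth was 9125000 to 12665000 reads in the TG NM-101 libraries and 10195000 to 12880000 in the TG placebo libraries, both estimated from steps in the values, and 10612290 to 14041951 counts in the WT placebo libraries. All 12 neuron markers and all 14 myelin markers were above 0 in every library. The neuron markers summed to 4073 to 4470 FPKM in TG NM-101, 3867 to 4425 FPKM in TG placebo and 4239 to 4681 RPKM in WT placebo libraries, alongside myelin markers at 2095 to 3810 FPKM, 1594 to 4997 FPKM and 2756 to 4597 RPKM in the same groups. Neuron markers were thus abundant in material labelled as oligodendrocytes. TG placebo replicates 2 and 3 stood apart. Their 7 nuclear-retained RNAs (Malat1, Meg3 and others) summed to 1013 and 1237 FPKM, against 191 to 283 FPKM in TG NM-101, 117 FPKM in TG placebo replicate 1 and 114 to 183 RPKM in WT placebo libraries. In these bulk samples, fewer cells of a type and less RNA per cell cannot be told apart.

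The inhibitor Nfkbia was the most abundant of the 10 genes per unit of length in all 3 groups, followed by Nfkbib. On the log2(FPKM + 1) scale Nfkbia averaged 4.34 ± 0.16 in TG NM-101 and 4.74 ± 0.33 in TG placebo, and on the log2(RPKM + 1) scale 4.38 ± 0.31 in WT placebo libraries (SD, n = 3 each). Nfkbib averaged 3.93 ± 0.08, 3.80 ± 0.14 and 3.87 ± 0.15 in TG NM-101, TG placebo and WT placebo libraries. The values of these inhibitors did not overlap each other within any group. Tnfaip3 and Nfkb2 were the lowest of the 10 in each group, and their values overlapped each other in TG NM-101. Between these extremes Rela, Chuk, Ikbkb and Ikbkg lay close together in both TG groups, where neighbours in the order overlapped. Nfkb1 and Relb followed, again overlapping each other in every group. This order holds per unit of length, and the order by counts differed. In WT placebo libraries Ikbkg had 490, 620 and 521 counts, above Nfkbia at 267, 428 and 464. Ikbkb had 256, 393 and 290 counts there, above Nfkbib at 166, 273 and 208. By reads estimated from depth and length, Ikbkb was above Nfkbib in every TG library too, but Nfkbia was above Ikbkg. These estimates rest on GENCODE lengths. A longer length for Ikbkg, described below, would raise its reads, so its order against Nfkbia in TG libraries is uncertain.

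**Figure D1:**
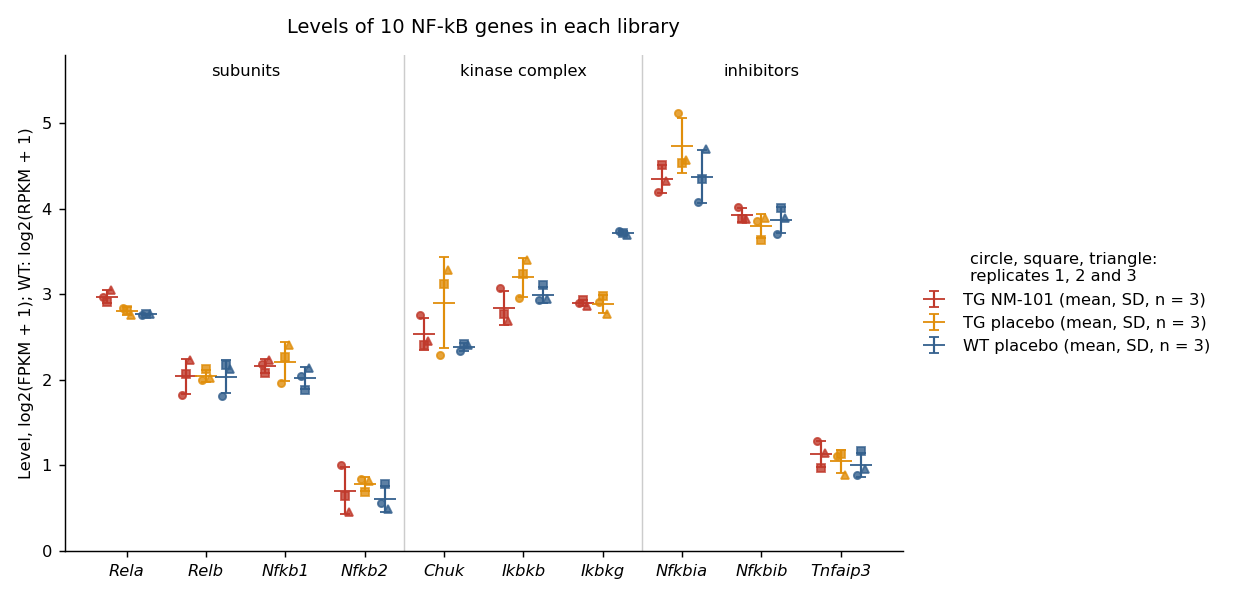
Levels of the 10 genes in each library on the log2(FPKM + 1) scale (WT: log2(RPKM + 1)), grouped by role; points are libraries, and lines give the mean and SD of 3. Most genes sit at similar heights in the 3 groups, while Chuk spreads widely in TG placebo libraries and Ikbkg is high in WT placebo libraries.

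What NM-101 changed in TG mice is addressed by its comparison with placebo in the same genotype. None of the 9 members tested passed the threshold in either direction (limma, adjusted p under 0.05 over all 12699 genes tested), where 0.134% of all genes passed, 0.102% higher and 0.0315% lower in TG NM-101. At an unadjusted p under 0.05, 1 member passed, Nfkbia, where 14.8% of all genes did. Of these 9, 4 had a positive and 5 a negative difference, and their median of -0.01 on the log2(FPKM + 1) scale stood beside 0.03 over all genes tested. Nfkb2 lay under the level tested, a mean log2(FPKM + 1) of 1 over the 6 TG libraries. The groups did not overlap for 2 of the 9 members, Rela and Nfkbia, against 19.6% of all genes tested. Rela was higher and Nfkbia lower in TG NM-101, where 13.6% and 5.98% of all genes did not overlap in those directions.

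Rela encodes the main activating subunit of NF-kB. It stood at 2.97, 2.91 and 3.05 in TG NM-101 and at 2.84, 2.82 and 2.75 in TG placebo libraries on the log2(FPKM + 1) scale. Every TG NM-101 library was above every TG placebo library, by little. The difference of 0.17 had a 95% interval from -0.09 to 0.43 and a limma adjusted p of 0.502, and it ran from 0.13 to 0.20 when single libraries were left out. In WT placebo libraries Rela had 166, 221 and 187 counts, which came to 15.6, 15.7 and 15.9 CPM (counts scaled to library size). The exact Poisson 95% interval of replicate 1 was 13.4 to 18.2 CPM, which covers counting error only.

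Nfkb1 encodes a precursor that is processed into a DNA-binding subunit, which often pairs with the Rela protein. Its level was 2.18, 2.08 and 2.23 in TG NM-101 and 1.96, 2.27 and 2.41 in TG placebo libraries. The groups overlapped, and the TG placebo libraries were the more spread, with replicates 2 and 3 above replicate 1. The difference was -0.05 (95% interval -0.40 to 0.30, limma adjusted p = 0.908). Nfkb2, the precursor used in the alternative NF-kB pathway, lay at 1.00, 0.64 and 0.46 in TG NM-101 and at 0.85, 0.69 and 0.82 in TG placebo libraries. About 11 to 40 reads stood behind each TG NM-101 value and about 23 to 28 behind each TG placebo value, as estimated from depth and length, and WT placebo libraries had 15, 30 and 15 counts. The groups overlapped, and Nfkb2 was not tested.

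Relb, the partner of the Nfkb2 product, had a gene level of 1.83, 2.07 and 2.23 in TG NM-101 and of 2.00, 2.13 and 2.02 in TG placebo libraries. The difference of -0.01 had a 95% interval from -0.35 to 0.34 (limma adjusted p = 0.991). Its level was split between 2 RefSeq transcripts in a nearly all-or-none way. NM_009046 held 99.8% and 99.9% of the gene's level in TG NM-101 replicates 2 and 3 but 0.30% in replicate 1, and it held at most 0.52% in any TG placebo library. Among WT placebo libraries it had 59 of 59 counts in replicate 1, 1 of 108 in replicate 2 and 1 of 87 in replicate 3. In the GENCODE annotation of the GRCm38 build these transcripts share their first and last bases on chromosome 7 and differ by 1 coding exon of 9 bases at chr7:19622926-19622934 on the minus strand. The stretch around it is shown because these 9 bases, in capitals, are the annotated difference between the 2 transcripts.
Relb NM_009046: aggaccacagATGAATTGGaaatcatcgac
Relb NM_001290457: aggaccacagaaatcatcgac
The library kit reads from the 3' end, which both transcripts share, and reads there cannot tell them apart. Values for Relb are therefore given for the sum of both. With only the transcript of the highest mean level per gene, the Relb difference was -1.43, with a limma adjusted p of 0.273.

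**Figure D2:**
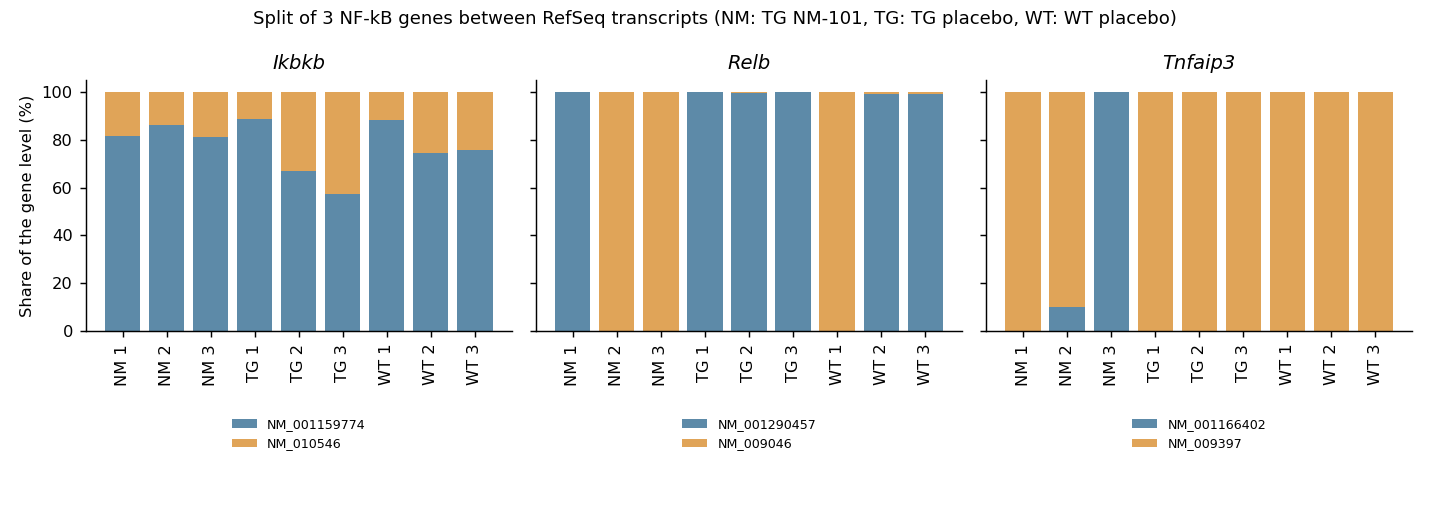
Share of the gene's level assigned to each RefSeq transcript of Ikbkb, Relb and Tnfaip3 in each library, in percent. Relb and Tnfaip3 sit near 0% or 100% in every library but TG NM-101 replicate 2 for Tnfaip3, while Ikbkb is divided in all 9.

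Among the kinase genes, Chuk had the widest spread of all tested members over the 6 TG libraries (SD 0.41), and most of it lay within the TG placebo group. Chuk encodes the kinase IKK-alpha. Its level was 2.76, 2.41 and 2.45 in TG NM-101 and 2.29, 3.12 and 3.29 in TG placebo libraries. TG placebo replicates 2 and 3 were above all TG NM-101 libraries and replicate 1 was below all of them. The difference of -0.36 had a 95% interval from -0.94 to 0.22 and a limma adjusted p of 0.520. Without TG placebo replicate 1 it was -0.66, past the threshold with a limma adjusted p of 0.0126, in a fit that called 17.8% of all genes, with 8.17% of all genes called lower. Without TG placebo replicates 2 and 3 it turned to 0.25, where limma gave an adjusted p of 0.750 with the lone TG placebo library assumed to vary like the TG NM-101 ones. WT placebo libraries gave 2.33, 2.41 and 2.40 on the rebuilt scale, near TG placebo replicate 1 and TG NM-101 replicates 2 and 3.

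Ikbkb encodes IKK-beta, the kinase of the classical pathway. The gene level was 3.07, 2.77 and 2.69 in TG NM-101 and 2.96, 3.23 and 3.40 in TG placebo libraries, with TG NM-101 replicate 1 above TG placebo replicate 1. The difference was -0.35 (95% interval -0.71 to 0.01, limma adjusted p = 0.340). Without TG placebo replicate 1 it was -0.47 and past the threshold, with a limma adjusted p of 0.0431, where 17.8% of all genes passed, 8.17% as lower. Without TG placebo replicates 2 and 3, which leaves 1 TG placebo library, it was -0.11.

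The spread of Ikbkb among TG placebo libraries lay in the level assigned to 1 of its 2 transcripts. The transcript NM_001159774 stood at 6.02, 5.00 and 4.44 FPKM in TG NM-101 and 5.98, 5.62 and 5.49 FPKM in TG placebo libraries. The other, NM_010546, stood at 1.38, 0.80 and 1.03 FPKM in TG NM-101 and at 0.78, 2.80 and 4.07 FPKM in TG placebo libraries. TG placebo replicates 2 and 3 were thus above all other libraries for NM_010546 alone. It made up 13.8% to 18.8% of the gene's level in TG NM-101 libraries, and 11.5%, 33.3% and 42.6% in TG placebo replicates 1, 2 and 3. In WT placebo libraries its share was 11.8%, 25.4% and 24.2%, from 33, 108 and 76 counts. The annotation of NM_010546 keeps the last intron of NM_001159774, chr8:22660460-22661401 on the minus strand, 942 bases long, and ends further upstream. Its annotated 3' end, at chr8:22659768, lies inside the last exon of NM_001159774, which runs on to chr8:22659212. Reads at that end fit both, so the division of the level between these transcripts is uncertain. The point where they part is shown, with the bases after it in capitals, because the kept intron sets NM_010546 apart.
Ikbkb NM_010546: gacagaagcttcacgGTAACCGCCTGAGGG
Ikbkb NM_001159774: gacagaagcttcacgACTCTAGACTGGAGC
The capitals of NM_010546 open with GT, the usual first bases of an intron.

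Chuk and Ikbkb NM_010546 were high in the same TG placebo libraries that were high in nuclear-retained RNAs. Of 9 such RNAs listed, 7 had a value, and all 7 were above 0 in every library. Among TG NM-101 libraries the nuclear-retained RNAs summed to 283, 280 and 191 FPKM. Chuk was at 5.75, 4.32 and 4.47 FPKM and NM_010546 at 1.38, 0.80 and 1.03 FPKM in these libraries. Replicate 1 was thus highest in each, while replicate 2 was lowest for Chuk and NM_010546. Among WT placebo libraries Chuk and NM_010546 ran opposite to the nuclear-retained RNAs. Chuk was at 4.04, 4.33 and 4.29 RPKM there, and NM_010546 was highest in replicate 2, at 1.93 RPKM, where the nuclear-retained RNAs were lowest, at 114 RPKM. The part of nuclear RNA in the kinase values was not tested.

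**Figure D3:**
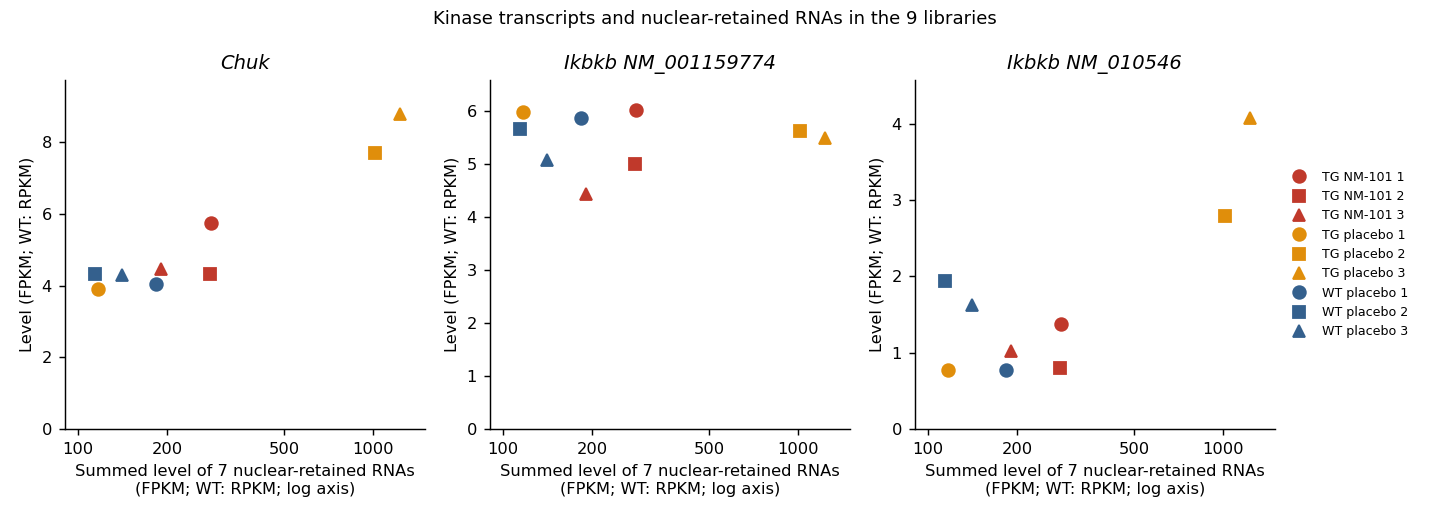
Level of Chuk and level assigned to each Ikbkb transcript (FPKM, WT: RPKM) against the summed level of 7 nuclear-retained RNAs (log axis) in the 9 libraries. TG placebo replicates 2 and 3 lie at the right and are highest for Chuk and NM_010546, but not for NM_001159774.

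Likeness was measured for the 3 tested members with the largest SD over the 6 TG libraries, Chuk, Nfkbia and Ikbkb. Among all genes tested, those most like Chuk were Scaf4 and Stk38, with a root-mean-square difference of 0.04 on the log2 scale after each gene was centred on its mean. Those most like Ikbkb were Anks3 and Zfp384, at 0.04 each, and those most like Nfkbia were Klc3 and Tmem163, at 0.06 and 0.07.

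Ikbkg encodes NEMO, the regulatory subunit that holds the kinase complex together. It varied little in the TG libraries, at 2.90, 2.93 and 2.86 in TG NM-101 and 2.90, 2.98 and 2.77 in TG placebo libraries. The difference was 0.01, with a 95% interval from -0.26 to 0.28 and a limma adjusted p of 0.980. The table lists 7 transcripts of Ikbkg, more than of any other member. NM_010547 held most of the level in each library, from 66.3% to 87.4%.

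Nfkbia encodes IkB-alpha, the inhibitor that NF-kB itself induces. Its level was 4.19, 4.51 and 4.33 in TG NM-101 and 5.12, 4.54 and 4.57 in TG placebo libraries. Every TG NM-101 library was below every TG placebo library, but TG NM-101 replicate 2 and TG placebo replicate 2 nearly met, and TG placebo replicate 1 lay well above the rest. The difference of -0.39, a 0.761-fold level, had a 95% interval from -0.77 to -0.02, with an unadjusted p of 0.0422 and a limma adjusted p of 0.317. It was -0.21 without TG placebo replicate 1 and -0.77 without replicates 2 and 3, which leaves 1 TG placebo library. About 275 to 403 reads stood behind the TG NM-101 values and about 428 to 541 behind the TG placebo values. TG placebo replicate 1 was also the library highest in ependymal and choroid plexus markers. These summed to 4618 FPKM there and to 11.9 and 17.2 FPKM in replicates 2 and 3. The sum was 72.2 to 1065 FPKM in TG NM-101 libraries. Of these 10 markers, 9 were above 0 in all TG placebo libraries, with Folr1 at 0 in some. All 10 were above 0 in each TG NM-101 library. In WT placebo, 6 were above 0 in all libraries, with Folr1, Otx2, Kcne2 and Tmem212 at 0 in some. Among TG NM-101 libraries the highest sum, 1065 FPKM in replicate 2, went with the highest Nfkbia level, and among WT placebo libraries the highest sum, 3076 RPKM in replicate 1, went with the lowest. The 14 myelin markers were also highest in TG placebo replicate 1, at 4997 FPKM against 1666 and 1594 FPKM in replicates 2 and 3. Among TG NM-101 libraries the highest myelin sum, 3810 FPKM in replicate 1, went with the lowest Nfkbia level. Among WT placebo libraries the highest, 4597 RPKM in replicate 3, went with the highest Nfkbia level. The part of ependymal, choroid plexus or myelin RNA in the Nfkbia values was not tested. WT placebo libraries stood at 4.08, 4.34 and 4.70 on the rebuilt scale. That range took in all TG NM-101 libraries and TG placebo replicates 2 and 3, but not TG placebo replicate 1.

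The Nfkbia promoter is shown because its feedback control is the textbook link between NF-kB and this gene. The window covers chr12:55492598-55492897 on the minus strand of GRCm38.p6, from RefSeq, with 250 bases before the annotated start and 50 from it on. Capitals mark a match to the kB consensus, the degenerate DNA motif that NF-kB pairs bind, searched on both strands.
Nfkbia promoter: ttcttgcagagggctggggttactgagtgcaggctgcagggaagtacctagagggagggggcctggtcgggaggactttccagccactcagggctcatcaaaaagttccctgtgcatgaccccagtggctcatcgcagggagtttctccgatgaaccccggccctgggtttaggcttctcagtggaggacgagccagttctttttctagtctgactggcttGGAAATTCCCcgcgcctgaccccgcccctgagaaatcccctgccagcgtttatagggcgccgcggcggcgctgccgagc
The match lies on the opposite strand, and its first base in the window is 29 bases before the start. The RefSeq promoter table had windows for 7 of the 10 members, 13 windows in all. The motif occurred in 5 of them, which belong to Nfkbia, Nfkb2 and Tnfaip3, and in 4.51% of 32851 promoter windows of all genes. Matches to it can overlap each other, and windows of Nfkb2 overlap as well. Of these 3 genes, Nfkbia had a negative difference and Tnfaip3 a positive one, neither past the threshold, and Nfkb2 was not tested. A match describes these letters and says nothing of binding.

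Nfkbib encodes IkB-beta, another inhibitor of the same kind. Its level was 4.02, 3.89 and 3.88 in TG NM-101 and 3.86, 3.63 and 3.89 in TG placebo libraries, so the groups overlapped. The difference was 0.13 (95% interval -0.12 to 0.39, limma adjusted p = 0.596). NM_001306222, the shorter transcript, whose annotated end lies 781 bases upstream of the other, held at least 93.6% of the level in every library. Tnfaip3 encodes a ubiquitin-editing enzyme that switches off signalling to the kinase complex. It stood at 1.28, 0.97 and 1.14 in TG NM-101 and at 1.11, 1.14 and 0.89 in TG placebo libraries. The difference was 0.09 (95% interval -0.28 to 0.45, limma adjusted p = 0.826). With only its highest transcript, NM_009397, the difference was -0.32, with no test because that transcript lay under the level tested. In TG NM-101 replicate 3, 99.9% of its level was assigned to NM_001166402, which was at 0 in all TG placebo and WT placebo libraries. The 2 transcripts differ in their first exon, and in GENCODE their 3' ends lie within a few bases of each other.

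**Figure D4:**
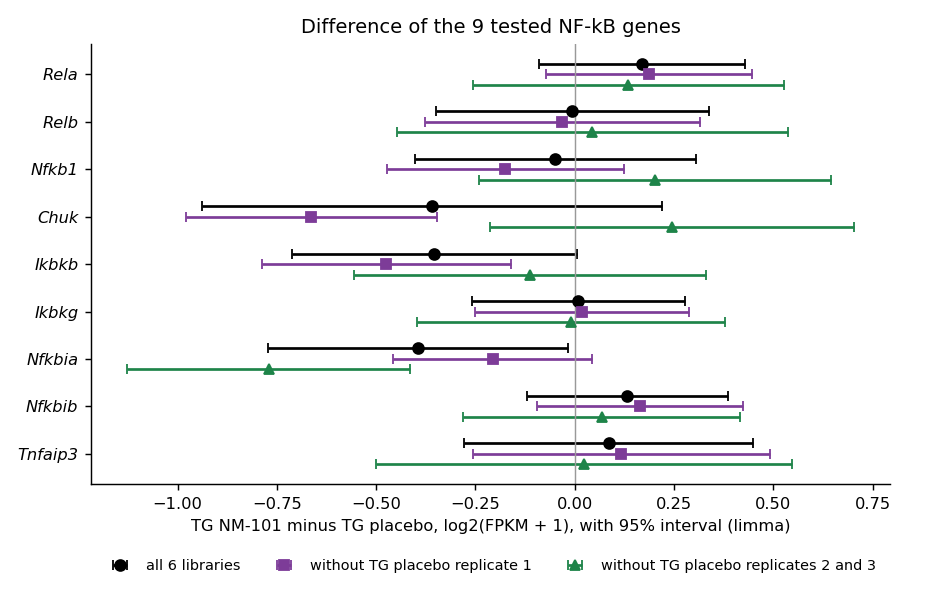
Difference of TG NM-101 minus TG placebo for the 9 tested genes on the log2(FPKM + 1) scale, with limma 95% intervals, for all 6 libraries and with TG placebo libraries left out. Chuk moves to -0.66 without replicate 1 and to 0.25 without replicates 2 and 3, while Rela stays positive in all 3.

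For the wider pathway, 3 lists of other genes were described. Of 36 other core NF-kB genes, 27 were tested and 0 passed in either direction, with 2 at an unadjusted p under 0.05 (limma) and a median difference of 0.03. Commd1, whose product promotes ubiquitination of Rela protein, had the smallest p, at 6.11, 6.18 and 5.84 in TG NM-101 and 5.59, 5.50 and 5.64 in TG placebo libraries. The groups did not overlap, and its difference of 0.47 had a limma adjusted p of 0.117. Cyld, a deubiquitinase that restrains the pathway, differed by 0.23 (adjusted p = 0.333 in limma), and Ube2n, a ubiquitin-conjugating enzyme that acts with Traf6, by 0.18 (adjusted p = 0.378 in limma). Among the kinases, Map3k7 averaged 3.64 ± 0.10 in TG NM-101 and 3.62 ± 0.03 in TG placebo, and Tbk1 3.70 ± 0.10 and 3.78 ± 0.10 (SD, n = 3 each), while Map3k14 and Ikbke lay under the level tested. The remaining subunit gene, Rel, was also under that level, at 0.43, 0.38 and 0.68 in TG NM-101 and 0.30, 0.28 and 0.18 in TG placebo libraries. It had 4, 11 and 6 counts in WT placebo libraries. Rel did not overlap between the TG groups, on about 27 to 41 reads in TG NM-101 and 12 to 21 in TG placebo libraries. The IkB-related genes Nfkbie and Bcl3 and the ubiquitin ligase gene Birc3 were under the level tested too, and Nfkbiz, an atypical IkB gene, differed by -0.12 (limma adjusted p = 0.821).

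Upstream ligands and receptors were mostly scarce. Of 27 genes, 10 were tested, 0 passed in either direction and 1 had an unadjusted p under 0.05 (limma), and their median difference was -0.08. That gene was Il1r1, the interleukin-1 receptor, at 1.71, 1.34 and 1.94 in TG NM-101 and 2.07, 2.32 and 2.40 in TG placebo libraries. Its difference of -0.60 had a limma adjusted p of 0.204. Endothelial and mural markers, all 12 above 0 in each library, summed to 80.3 to 87.1 FPKM in TG NM-101 and to 86.6, 117 and 117 FPKM in TG placebo libraries, and their part in this value was not tested. Il1rap differed by -0.41 (limma adjusted p = 0.375) and Ticam1 by -0.32 (limma adjusted p = 0.436). Tnfrsf1a, the main tumour necrosis factor receptor, averaged 2.62 ± 0.29 in TG NM-101 and 2.35 ± 0.32 in TG placebo, and the adaptor Myd88 1.82 ± 0.27 and 1.76 ± 0.15 (SD, n = 3 each). Tnf was listed at 0 in every TG NM-101 library and in 2 of 3 TG placebo libraries. Il1b averaged 0.37 ± 0.28 in TG NM-101 and 0.10 ± 0.01 in TG placebo, Tlr2 0.60 ± 0.09 and 0.37 ± 0.16, and Tlr4 0.65 ± 0.10 and 0.40 ± 0.02 (SD, n = 3 each), all under the level tested. The 12 microglia markers, all above 0 in each library, summed to 427 to 441 FPKM in TG NM-101 and 332 to 361 FPKM in TG placebo libraries, and the 12 astrocyte markers to 1947 to 2041 and 1373 to 1581 FPKM. Their part in these values was not tested.

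Of 30 genes that NF-kB is known to induce, 13 were tested, 0 passed in either direction and 2 had an unadjusted p under 0.05 (limma). The median difference of these 13 was 0.14, with 8 positive and 5 negative. Fas, a death receptor gene, was at 0.82, 0.47 and 0.95 in TG NM-101 and at 1.10, 1.27 and 1.58 in TG placebo libraries, without overlap. Its mean was 0.75 in TG NM-101 and 1.31 in TG placebo, so it reached the level tested only through the group where it was high. Its difference was -0.57, and its limma adjusted p of 0.249 is subject to that selection. Xiap, an inhibitor of caspases, differed by 0.30 (limma adjusted p = 0.318), and Csf1, a growth factor of microglia, by -0.29 (limma adjusted p = 0.371). The mitochondrial enzyme gene Sod2 averaged 5.57 ± 0.04 in TG NM-101 and 5.33 ± 0.33 in TG placebo (SD, n = 3 each), with a limma adjusted p of 0.469. The adhesion gene Icam1 and the chemokine gene Ccl2 were under the level tested. Over the 3 lists 6 genes passed without TG placebo replicate 1, where 17.8% of all genes did. Tnip2, Malt1, Il1r1 and Fas were lower in TG NM-101, and Commd1 and Sod2 were higher. Malt1, not tested with all 6 libraries, entered that fit only through the high values of TG placebo replicates 2 and 3, 1.37 and 1.49, and Fas likewise reached the level through TG placebo. Without TG placebo replicates 2 and 3, 1 gene passed, Ier3, which was higher in TG NM-101, where 0.83% of all genes passed, 0.435% as higher.

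**Figure D5:**
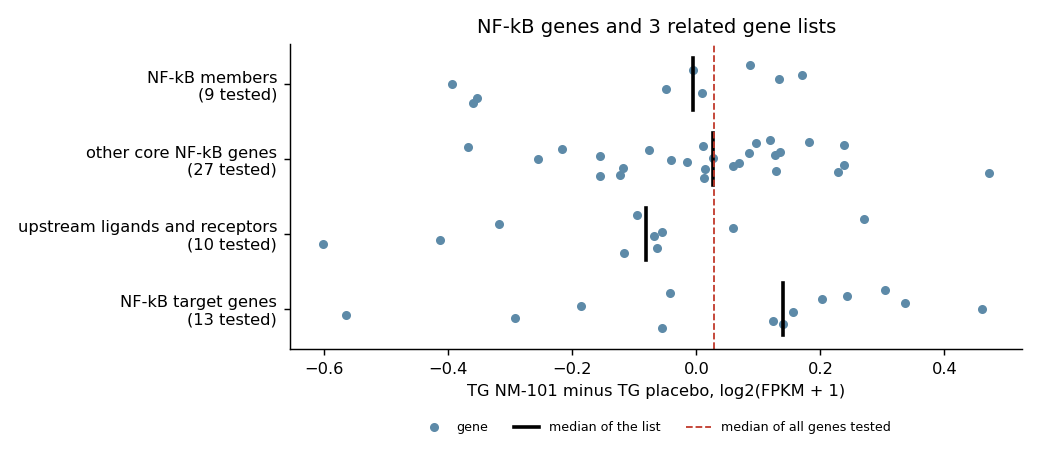
Difference of TG NM-101 minus TG placebo for each tested gene of the 10 members and of 3 related lists on the log2(FPKM + 1) scale, with the median of each list and of all genes tested. The medians run from -0.08 to 0.14, beside 0.03 over all genes.

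Levels of the TG groups were set beside WT placebo as a description, with no test, since the columns were normalized separately. Both comparisons share the WT placebo libraries. All genes means here the 12410 genes with a mean level of at least 1 over all 9 libraries. Nfkb2 lies under that level but is part of the member medians. For TG NM-101 minus WT placebo, 7 of the 10 members had a positive difference, with a median of 0.07 beside 0.05 over all genes. This became 5 of 10 with median-ratio scaling, with the highest transcript of each gene and without WT placebo replicate 1, where the medians were 0.026, 0.011 and 0.022. For TG placebo minus WT placebo, 8 were positive (6 with median-ratio scaling), with a median of 0.11 beside 0.05 over all genes, and the median was -0.024 without TG placebo replicates 2 and 3. Among the 9 members that reached that level, groups did not overlap for 2 in TG NM-101 and 1 in TG placebo, against 36.6% and 36.7% of all genes. Rela was higher in TG NM-101 (23.5% of all genes), and Ikbkg was lower in TG NM-101 (13.1%) and in TG placebo (15.9%). Nfkbia differed from WT placebo by -0.03 in TG NM-101 and by 0.36 in TG placebo libraries (0.18 without replicate 1 and 0.74 without replicates 2 and 3), and overlapped WT placebo in both. Chuk differed by 0.16 in TG NM-101 and by 0.52 in TG placebo libraries, and leaving out TG placebo replicate 1 gave 0.82 for TG placebo, while leaving out replicates 2 and 3 gave -0.09. Rela differed by 0.21 in TG NM-101 libraries, all above WT placebo, and by 0.04 in TG placebo libraries.

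Ikbkg had the largest difference from WT placebo of the 10 members in both TG groups. It was 2.90 ± 0.04 in TG NM-101 and 2.89 ± 0.11 in TG placebo, against 3.72 ± 0.02 in WT placebo libraries (SD, n = 3 each), without overlap. These differences of -0.82 and -0.83 rest on transcript lengths taken from GENCODE. NM_010547 was given a length of 3332 bases there. A length of 6553 bases for TG NM-101, or 6165 bases for TG placebo, would bring its FPKM to the WT share of reads, and 4 other Ikbkg transcripts of the annotation measure 6736 to 6918 bases. For Rela the same calculation gave 2295 bases for TG NM-101 and 2631 bases for TG placebo, against an annotated 2716. It gave 2174 bases for Chuk NM_007700 in TG placebo against 3502, and 8719 bases for Ikbkg NM_178590 in TG NM-101 against 4530, which is longer than any annotated Ikbkg transcript used here. No source used here gives the length that the authors used, so a genotype difference in Ikbkg cannot be told apart from a difference in length.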

How the data were processed

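Libraries from FFPE-kit RNA were made with a 3' end kit (QuantSeq), per the labels' protocols, and aligned with Bowtie2 to mm10, per the submitters' processing notes. No source used here names the counter, its strand setting or the normalization. The authors deposited counts in the 3 WT columns and log2 values in the 6 TG columns of 1 table. The reading of the log2 values as log2(FPKM + 1) was taken from the values: between 85.8% and 86.8% of low ones lay within 0.2 of a whole read. TG depths come from those steps.

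Transcripts were named from RefSeq for GRCm38.p6 (32394 of 33299) and summed per gene on the linear scale, with lengths from GENCODE M21. Genes with a mean log2(FPKM + 1) of at least 1 over the 6 TG libraries were tested with limma 3.58.1 in R 4.3.3 (pseudocount 1, variance trend, robust shrinkage, Benjamini-Hochberg over 12699 genes, two-sided), which was also tested on simulated data. Fold changes on this scale understate changes of low genes. Since separate mice are not stated, the p-values reflect only the variation among these libraries, which may be technical. Intervals marked as such are 95%.

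The members, lists and naming rule were chosen with earlier results of these data known. Named from the lists were a fixed set and the 3 smallest p-values per list. Malt1, Tnip2 and Ier3 were named after their values were seen. Predicted loci (Gm or Rik names) were not considered for likeness. Promoters were first searched with narrower forms of the kB motif, and the consensus replaced them after those matches were seen. Nfkbib overlaps Ccer2 and Sirt2, Nfkb2 overlaps Psd and a non-coding RNA gene, and Ikbkg overlaps G6pdx on the opposite strand, so reads there are uncertain.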

Additional observations from a re-analysis of the deposited data

How the results depend on the processing

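Of 9 members tested for TG NM-101 minus TG placebo, 0 passed in limma under every alternative except without TG placebo replicate 1, where 2 passed (leave-one-out range 0 to 2). Without that library 17.8% of all genes passed, 8.17% as lower, and both members were lower. The related lists gave 0 calls except 6 without that library (range 0 to 6) and 1 without TG placebo replicates 2 and 3, an alternative chosen after seeing the data. Over all genes the count of 17 became 4 with every gene above 0, 0 with only genes above 0 in all 6 libraries, 4 with median-ratio scaling, 4 with neither trend nor robust shrinkage, 7 with the highest transcript, 105 without TG placebo replicates 2 and 3, and 2 to 2262 when single libraries were left out. Calls were 13 higher and 4 lower, against 0 and 4 with every gene above 0 and with neither trend nor robust shrinkage, 1 and 3 with median-ratio scaling, and 2 and 5 with the highest transcript. With the replicate number as a block the count was 3 (0 higher, 3 lower), and 0 members passed. Same-numbered TG libraries did not deviate together (correlations 0.04, -0.03 and -0.02). Correlations from 3 libraries a group cannot settle whether the numbers pair libraries. Of the members, Rela, Nfkbia, Nfkbib and Ikbkb kept their sign under all 14 alternatives and Tnfaip3 under the 13 that tested it (-0.32, untested, with the highest transcript). The signs of Nfkb1, Relb, Chuk and Ikbkg changed under some alternatives, and no value of the changed sign passed. The median difference of the members for TG placebo minus WT placebo was -0.024 without TG placebo replicates 2 and 3. The median level over members, 2.69 in TG NM-101, 2.85 in TG placebo and 2.58 in WT placebo, became 2.44, 2.68 and 2.49 with the highest transcript and 2.47, 2.65 and 2.34 with a pseudocount of 0.1, and 2.61 in WT placebo with median-ratio scaling. The cause was not tested. Low depth limits Nfkb2, Rel and Tnfaip3, and 3 libraries a group limit the precision of every difference.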
